A study of Mus musculus with 8 samples.

Results

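The genes described here encode G9a (Ehmt2), its partner GLP (Ehmt1) and proteins that work with them on lysine 9 of histone H3 (H3K9), a residue whose methylation marks repressed chromatin. G9a and GLP form a heterodimer that writes mono- and dimethyl H3K9. The zinc finger proteins Wiz and Zfp644 and the chromodomain protein Cdyl bind this heterodimer and help to place it on chromatin. Setdb1 and Setdb2 are separate H3K9 methyltransferases, and Setdb1 works largely with zinc finger repressors and silences repeated elements. The HP1 proteins, HP1 beta (Cbx1), HP1 gamma (Cbx3) and HP1 alpha (Cbx5), read methylated H3K9 through their chromodomain. Members were all probe sets that the platform annotation gives to these genes by symbol. All 10 of the 10 listed genes were measured, by 27 of the 45037 probe sets that are not array controls, and each probe set was tested separately.

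Bulge cells are the stem cells of the hair follicle, and here they came from the back skin of mice. Of the arrays, 4 are labelled G9a cKO and 4 are labelled G9a WT. The animals of all 8 arrays, controls included, had been painted with the mutagen DMBA (0.25 mg/ml) and the tumour promoter TPA (0.02 mg/ml). They received 200 µl of each solution once weekly for 6 weeks from 8 weeks of age, and are labelled as 15 weeks old. The tissue is called pre-neoplastic in the labels, so the arrays ask what the loss of G9a changes in treated skin before tumours form. The conditional allele, the deleted part of the gene, the driver of the deletion, the method that isolated the bulge cells and the alleles of the WT animals were not stated in the labels used here. Values are log2 expression, and a difference of 1 is a 2-fold difference. A probe set was called when its Benjamini-Hochberg adjusted p, by limma over all 45037 probe sets, was under 0.05.

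The arrays were alike in scale, and markers of the labelled cell type gave signal on all of them. Each probe set has its own response, so the marker levels below describe the arrays and do not measure shares of cell types. Array medians lay between 5.87 and 5.95, and array pairs correlated at 0.993 to 0.998 across probe sets. Markers of bulge cells (8 genes, 19 probe sets) averaged 9.18 to 9.25 in cKO and 9.28 to 9.43 in WT arrays, and 5 basal keratinocyte markers averaged 10.92 to 11.03 over all arrays. Markers of suprabasal and cornifying keratinocytes (5 genes, 6 probe sets) averaged 7.03 to 7.59 over all arrays, and none was called. Of these, the keratin genes Krt1 and Krt10 gave high signal, with means of 10.0 and 10.4. Markers of leukocytes averaged 4.53 to 4.72 over all arrays, those of endothelium 4.66 to 4.91 and of melanocytes 5.01 to 5.26. Those of fibroblasts averaged 4.57 to 4.70 in cKO and 4.71 to 4.78 in WT arrays. Of the 35 leukocyte, fibroblast, endothelial and melanocyte probe sets, 26 lay in the lowest 40% of the array. Of the 35 only Col1a1, a fibroblast collagen gene, was called (log2 difference -0.91, limma adjusted p = 0.00114). Among the bulge probe sets, 1 of the 5 for Nfatc1, a quiescence factor, was called (limma adjusted p = 0.0339). All 5 were lower in cKO, with log2 differences from -0.52 to -0.14. Of the 19 bulge probe sets, 16 had a difference below 0. Immediate early genes, which tissue dissociation also raises, averaged 10.01 to 10.20 in cKO and 10.47 to 10.60 in WT replicates 1 to 3, but 10.15 in WT replicate 4. All 15 of their probe sets had a difference below 0, and 1 for the transcription factor Egr2 was called (-0.72, limma adjusted p = 0.0387). The other Egr2 probe set differed by -0.61 and was not called (limma adjusted p = 0.0728). A list of 9 proliferation genes averaged highest in WT replicate 4 and cKO replicate 1 (8.42 and 8.38), against 7.75 to 8.13 elsewhere.

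G9a and GLP belong to the same enzyme family and act in one complex. One probe set of Ehmt2 was far lower in cKO, while the other Ehmt2 probe set and the single Ehmt1 probe set did not pass the test. The windows around the RefSeq starts of both genes (GRCm38.p6, 250 bases before to 50 bases after each start) are printed here because these are the genes the comparison turns on. CG dinucleotides are in capitals, and letters run 5′ to 3′ on the strand of the gene.
Ehmt2, first start, chr17:34898224-34898523, plus strand: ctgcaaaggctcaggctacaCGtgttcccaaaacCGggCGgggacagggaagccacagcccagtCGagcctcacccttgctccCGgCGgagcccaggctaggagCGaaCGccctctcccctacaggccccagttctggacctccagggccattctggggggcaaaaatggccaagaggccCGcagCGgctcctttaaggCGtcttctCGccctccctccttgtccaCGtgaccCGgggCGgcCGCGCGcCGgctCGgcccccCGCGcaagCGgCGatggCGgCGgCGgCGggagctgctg
Ehmt2, second start, chr17:34898720-34899019, plus strand: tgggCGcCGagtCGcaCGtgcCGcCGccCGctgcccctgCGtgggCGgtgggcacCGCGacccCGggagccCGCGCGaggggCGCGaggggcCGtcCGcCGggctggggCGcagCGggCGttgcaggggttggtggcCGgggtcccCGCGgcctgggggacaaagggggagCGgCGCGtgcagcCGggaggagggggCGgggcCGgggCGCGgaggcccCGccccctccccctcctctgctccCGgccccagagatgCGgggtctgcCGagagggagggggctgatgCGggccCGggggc
Ehmt1, chr2:24919560-24919859, minus strand: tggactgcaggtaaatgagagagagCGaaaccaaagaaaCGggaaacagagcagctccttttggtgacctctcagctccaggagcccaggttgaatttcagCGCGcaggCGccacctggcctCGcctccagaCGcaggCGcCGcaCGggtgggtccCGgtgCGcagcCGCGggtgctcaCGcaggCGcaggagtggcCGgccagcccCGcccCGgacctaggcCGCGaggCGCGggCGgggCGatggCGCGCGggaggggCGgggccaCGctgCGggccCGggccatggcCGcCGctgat
The windows hold 28 and 40 CG dinucleotides for Ehmt2 and 34 for Ehmt1, whereas the median over all 32851 windows of the table is 7. All 10 members have at least 1 such window with a GC content of 50% or more and an observed-to-expected CG ratio of 0.6 or more, which 36.0% of the 27025 genes in the table have. Genes with several windows have more chances to qualify. Counted by window, 14 of 19 member windows and 10995 of 32851 in the table met both limits. These counts describe the sequence alone, since methylation and binding were not measured.

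Ehmt2 probe set 1460692_PM_at read 6.44, 5.54, 5.80 and 5.64 in cKO replicates 1 to 4. In WT replicates 1 to 4 the same probe set read 9.29, 8.89, 8.93 and 9.15. The groups did not overlap, and cKO replicate 1, the highest cKO array, stayed far below the lowest WT array. The means were 5.85 ± 0.41 in cKO and 9.07 ± 0.19 in WT (SD, n = 4 each), a log2 difference of -3.21 (SE 0.18, 95% interval -3.60 to -2.82, limma adjusted p = 6.23e-05). The signal left in cKO was 10.8% of that in WT, and p was 0.0286 in an exact permutation test (two-sided), the lowest value that 4 against 4 arrays allow. This value is for the stretch of transcript that the probe set reads, and whether the rest fell with it was not tested. In a bulk sample, fewer cells with that stretch and less of it per cell cannot be told apart. No other probe set on the array had as large a fall, and 2 others had a rise of at least this size. Its rank among all probe sets dropped from the 87.7th to 91.0th percentile of level in WT arrays to the 45.1st to 56.7th in cKO arrays, close to the middle of the array.

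Ehmt2 probe set 1426888_PM_at, which the annotation ties to the same sequence record as the first, read 8.43, 8.43, 8.39 and 8.39 in cKO replicates 1 to 4. In WT replicates 1 to 4 it read 8.40, 8.41, 8.42 and 8.42. The groups overlapped fully, at 8.41 ± 0.02 and 8.41 ± 0.01 (SD, n = 4 each), and the 95% interval of the log2 difference ran from -0.11 to 0.10 (limma adjusted p = 0.995). This probe set was also among the steadiest on the array: its SD over all 8 arrays was 0.016, and only 38 of 45037 probe sets had a smaller one, although its level stood at the 82.9th percentile. Subtracting it from 1460692_PM_at within each array gave -1.98, -2.90, -2.59 and -2.75 in cKO. The same subtraction gave 0.89, 0.48, 0.51 and 0.74 in WT. The 2 probe sets therefore responded unequally, by -3.21 log2 units (exact two-sided permutation p = 0.0286, n = 4 each). Which exons either probe set covers was not analysed here, so the steady one does not check the label of an array. Among genes with several probe sets of which at least 1 was called, 192 of 247 (77.7%) also had at least 1 that was not. That share takes in dim probe sets and those just short of the threshold. Genes with so large a change beside so steady a probe set were not counted.

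**Figure D1:**
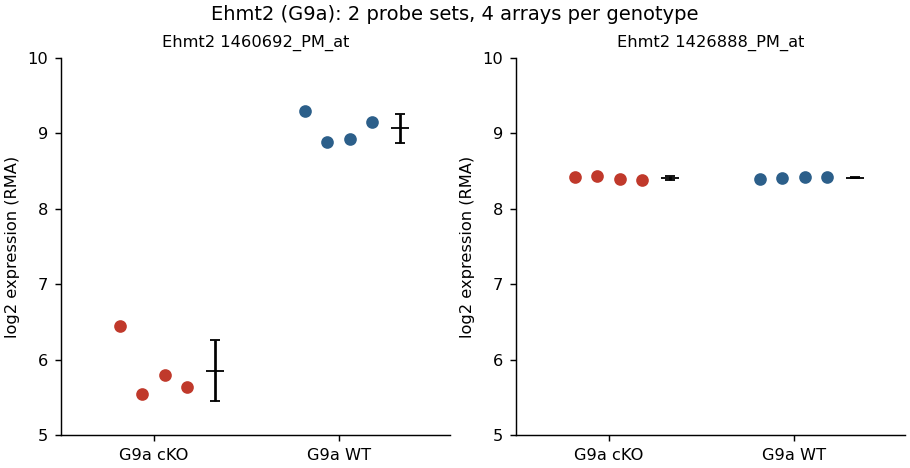
Log2 expression (y axis, RMA) of both Ehmt2 probe sets in the G9a cKO arrays (red) and G9a WT arrays (blue), with points for single arrays and the bar for the mean ± SD (n = 4). On the left, all cKO arrays lie at 6.44 or below and all WT arrays at 8.89 or above; on the right, all 8 arrays lie between 8.39 and 8.43.

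Ehmt1 has 1 probe set, 1454776_PM_at, and it read 9.28, 9.11, 9.10 and 9.22 in cKO and 9.08, 9.15, 9.20 and 9.25 in WT. The cKO and WT arrays were intermixed, with means of 9.18 ± 0.09 and 9.17 ± 0.07 (SD, n = 4 each; limma adjusted p = 0.990). The 95% interval of the cKO-to-WT ratio ran from 0.915 to 1.10. Protein was not measured.

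The 10 genes hold 27 probe sets, of which the Ehmt2 one was called and 26 were not, while 1.78% of all probe sets were called. The unadjusted p was under 0.05 in 1 of the 26, against 13.0% of all probe sets. Without WT replicate 4 it was under 0.05 in 4 of the 26, against 17.0% of all probe sets. Without cKO replicate 1 it was under 0.05 in 2 of the 26, against 15.1% of all probe sets. With all 8 arrays, the groups did not overlap in 1 of the 26, the same probe set, against 7.35% of all. With only the probe set of highest mean kept per gene, the steady one stands for Ehmt2, and 0 of the 10 genes were called by limma (0 at an unadjusted p under 0.05), against 2.76% of all genes. The median log2 difference of all 27 was 0.0043, and that of all 45037 probe sets was -0.0036. Of the 26, 15 lay above 0 and 11 below, from -0.20 to 0.11. For 20 of the 26 the whole 95% interval of the cKO-to-WT ratio lay within 1.2-fold in either direction. The widest reached was a ratio of 0.800 at the low end and 1.31 at the high end, both for Cbx5 probe sets. Of the 26, 4 probe sets, 1 each of Zfp644, Cdyl, Cbx1 and Cbx5 lay in the lowest 40% of the array, where differences are compressed. Some lay only just above that cut, such as Cbx1 1422935_PM_x_at and the only Setdb2 probe set, at the 41.5th and 44.0th percentile of level. A narrow interval at such levels may also reflect low signal.

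**Figure D2:**
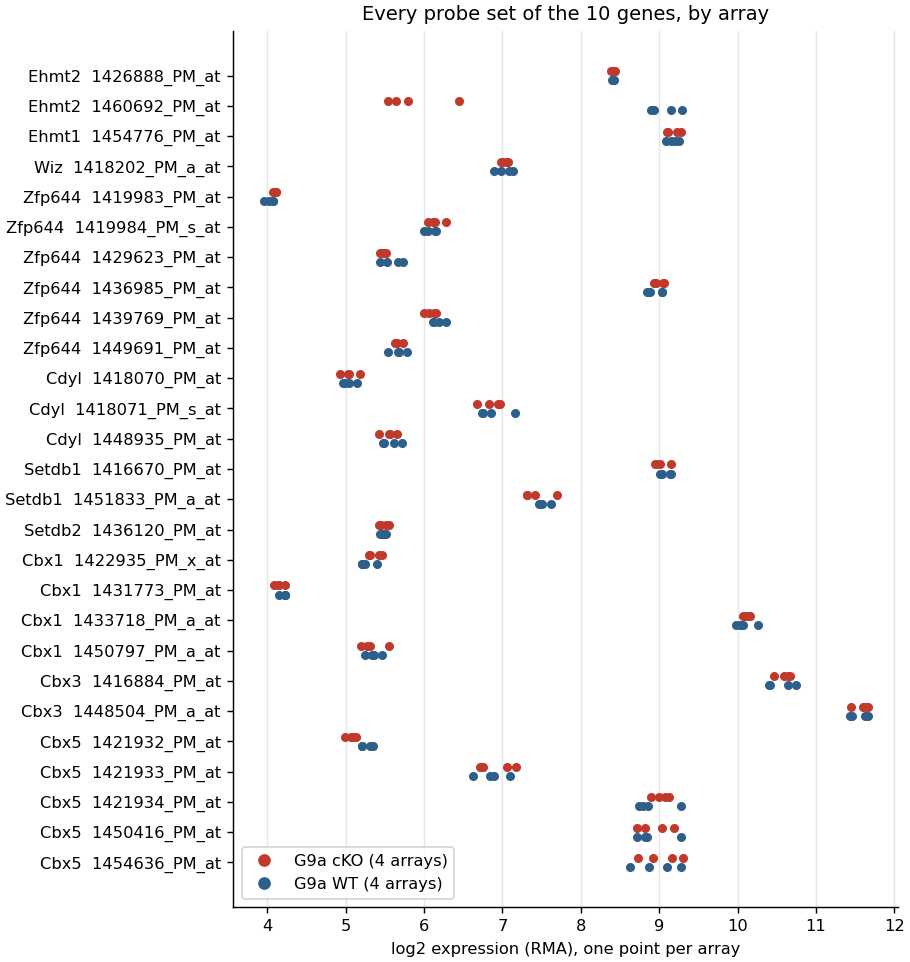
Log2 expression (x axis, RMA) of each of the 27 probe sets (rows), with a point for each G9a cKO array (red) and each G9a WT array (blue), 4 of each. The colours separate widely only for Ehmt2 1460692_PM_at (5.54 to 6.44 against 8.89 to 9.29); levels of different rows are not comparable because each probe set has its own response.

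The cofactors that bind G9a and GLP showed no called difference. Wiz, which stabilises the heterodimer, read 7.06, 7.07, 6.99 and 7.01 in cKO and 6.98, 6.89, 7.09 and 7.14 in WT. The cKO values lay inside the WT range, and the ratio had an interval of 0.906 to 1.11 (limma adjusted p = 0.990). Zfp644, a zinc finger protein that binds Wiz, had 6 probe sets with log2 differences from -0.11 to 0.07, 3 above 0 and 3 below. Of these, 1436985_PM_at read 8.96, 8.93, 9.06 and 9.05 in cKO. It read 8.84, 9.04, 8.88 and 9.04 in WT, so the groups overlapped (limma adjusted p = 0.834). The lowest adjusted p among the 6 was 0.511, for the dim 1419983_PM_at. Cdyl, a corepressor that links H3K9 methylation to the REST complex, had 3 probe sets with differences from -0.03 to 0.01. Of these, 1418071_PM_s_at read 6.94, 6.97, 6.83 and 6.68 in cKO and 7.17, 6.74, 6.76 and 6.85 in WT (limma adjusted p = 0.961). The suffix s marks a probe set that can match transcripts of more than one gene, so its signal may not be from Cdyl alone.

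The other H3K9 methyltransferases also showed no called difference. Setdb1 was measured by 2 probe sets. Probe set 1416670_PM_at read 9.16, 8.96, 8.94 and 9.01 in cKO and 9.01, 9.03, 9.14 and 9.15 in WT, a log2 difference of -0.07 with an interval of -0.20 to 0.07 (limma adjusted p = 0.759). Probe set 1451833_PM_a_at read 7.70, 7.42, 7.32 and 7.31 in cKO and 7.62, 7.47, 7.48 and 7.50 in WT, a difference of -0.08 with an interval of -0.27 to 0.12 (limma adjusted p = 0.813). In both, cKO replicate 1 was the highest cKO array and lay above the WT mean. Setdb2 read 5.42 to 5.55 in cKO and 5.44 to 5.52 in WT (limma adjusted p = 0.990), a level below the median of every array.

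**Figure D3:**
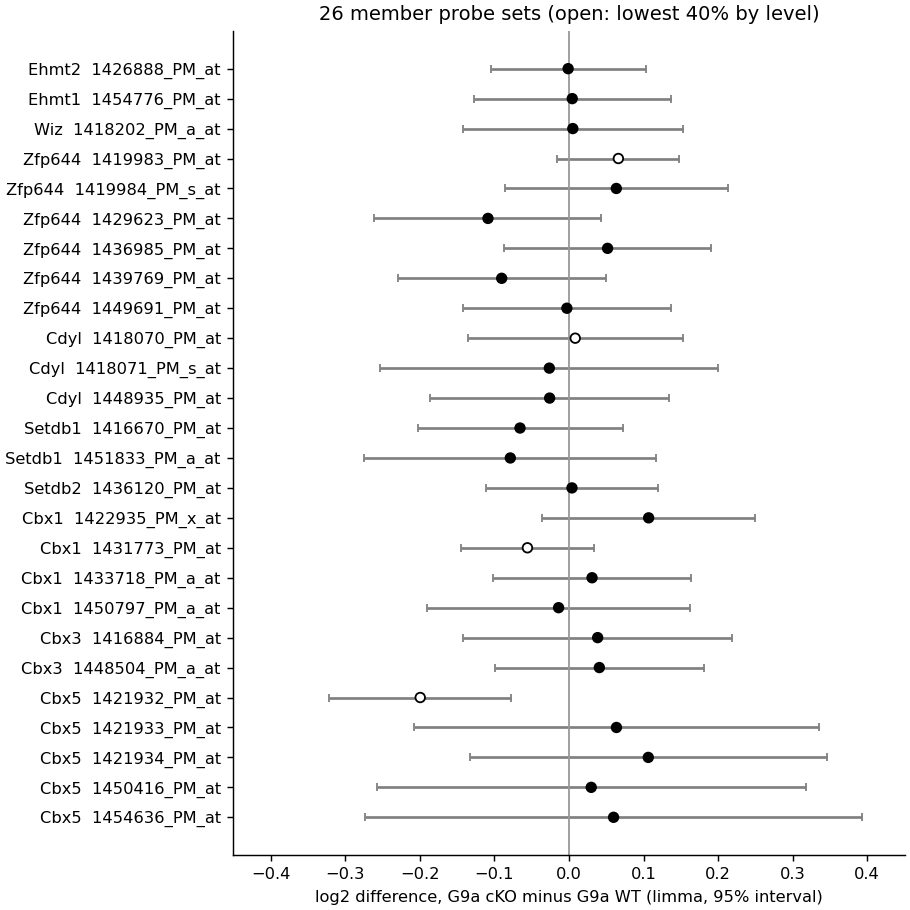
Log2 difference, G9a cKO minus G9a WT (x axis, point and 95% limma interval), of the 26 member probe sets other than Ehmt2 1460692_PM_at, which lies off this scale at -3.21; open points are in the lowest 40% of probe sets by level. All points lie between -0.20 and 0.11, and the interval of 25 of them spans 0, that of Cbx5 1421932_PM_at being the exception.

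The HP1 genes were measured by 11 probe sets and none was called. For HP1 beta, Cbx1 1433718_PM_a_at read 10.16, 10.14, 10.10 and 10.07 in cKO and 10.03, 9.98, 10.07 and 10.26 in WT. WT replicate 4 was the highest of the 8 arrays and the other WT arrays lay below the cKO arrays (log2 difference 0.03, limma adjusted p = 0.915). The 3 further Cbx1 probe sets differed by -0.06, -0.01 and 0.11, and the last, 1422935_PM_x_at, is of the kind whose probes can cross-hybridise. For HP1 gamma, Cbx3 1448504_PM_a_at read 11.66, 11.64, 11.60 and 11.45 in cKO and 11.63, 11.46, 11.43 and 11.67 in WT (difference 0.04, limma adjusted p = 0.886). The other Cbx3 probe set, 1416884_PM_at, differed by the same 0.04 (limma adjusted p = 0.924).

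HP1 alpha varied most among arrays: 4 of its 5 probe sets had the largest SDs over the 8 arrays (0.18 to 0.25) of the 26 uncalled member probe sets. Cbx5 1450416_PM_at read 9.19, 9.04, 8.82 and 8.72 in cKO and 8.84, 8.71, 8.82 and 9.27 in WT. Cbx5 1454636_PM_at read 9.30, 9.16, 8.93 and 8.72 in cKO and 9.11, 8.63, 8.87 and 9.28 in WT. Both genotypes thus held arrays at the top and at the bottom of the range, and the differences were 0.03 and 0.06 (limma adjusted p = 0.966 and 0.938). Cbx5 1421933_PM_at and 1421934_PM_at differed by 0.06 and 0.11 (limma adjusted p = 0.915 and 0.784). In each of these 4 probe sets, cKO replicate 1 and WT replicate 4 were the highest array of their genotype. The same arrays had the highest proliferation means, at 8.38 and 8.42, and the part of proliferation in the Cbx5 values was not tested. Without both of these arrays, a choice made after seeing the data, no Cbx5 probe set was called and 1421934_PM_at differed by 0.19 (limma adjusted p = 0.144).

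The last Cbx5 probe set, 1421932_PM_at, is dim. It read 5.09, 4.99, 5.07 and 5.13 in cKO and 5.31, 5.20, 5.35 and 5.21 in WT, so that the groups did not overlap. The difference was -0.20 (SE 0.06, n = 4 each) with an interval of -0.32 to -0.08, and it was not called (limma adjusted p = 0.122, range over the alternatives 0.0571 to 0.351; exact permutation p = 0.0286). It is the member probe set that had an unadjusted p under 0.05, at 0.00441. The 4 other probe sets of Cbx5 had differences above 0, but only 1421934_PM_at kept that sign whichever array was left out. Without cKO replicate 1 the differences of 1421933_PM_at, 1450416_PM_at and 1454636_PM_at were -0.02, -0.05 and -0.03, and without WT replicate 2 they were -0.02, -0.04 and -0.05.

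**Figure D4:**
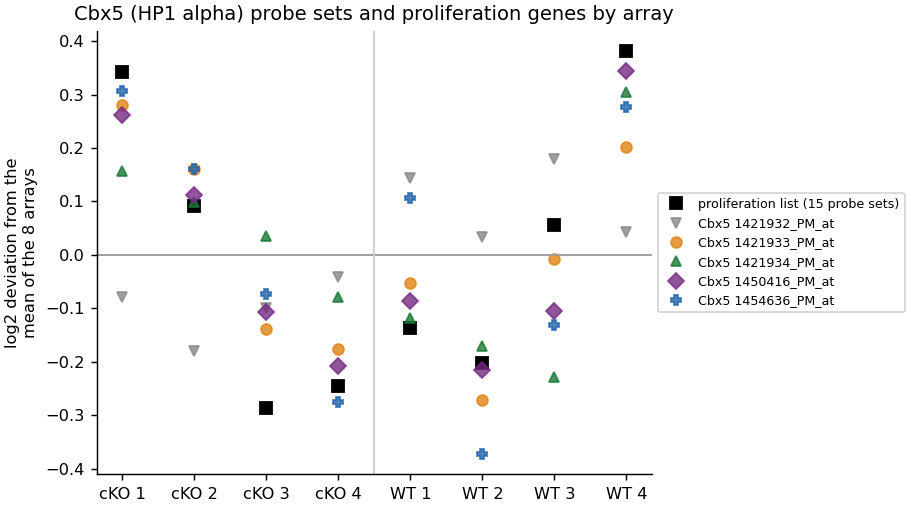
Log2 deviation of each array from the mean of the 8 arrays (y axis) for the 5 Cbx5 probe sets (coloured symbols) and the mean of the 15 proliferation probe sets (black squares), cKO arrays on the left and WT arrays on the right. The proliferation mean and 4 of the Cbx5 probe sets are highest within their genotype in cKO replicate 1 and WT replicate 4, while 1421932_PM_at (grey) is below 0 in all cKO arrays and above 0 in all WT arrays.

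Other genes of the H3K9 system were taken from 6 lists of 45 genes, of which 41 were measured, by 85 probe sets. Of the 85, 3 were called, all higher in cKO, where 1.19% of all probe sets were called higher and 0.591% lower. The lists were chosen with earlier results of these data known, so these shares do not test for an excess. All 3 were zinc finger genes of a list of 8 partners of G9a and GLP with 14 probe sets: Zfp518a, Zfp518b and Zfp462, whose products are known as partners of G9a or GLP. With 1 array left out, the share of all probe sets called higher was 1.33%, 0.659%, 0.915% and 0.824% without cKO replicates 1 to 4, and 0.762%, 0.946%, 0.708% and 1.91% without WT replicates 1 to 4. The recruiter list had a median log2 difference of 0.098, with 10 of 14 probe sets above 0. The other lists had medians between -0.043 and 0.0095.

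Zfp518a 1428629_PM_at read 5.74, 6.08, 5.79 and 5.68 in cKO and 4.66, 4.26, 4.38 and 5.03 in WT. The groups did not overlap, and WT replicate 4 lay nearest to cKO. At 5.82 ± 0.18 against 4.58 ± 0.34 (SD, n = 4 each) it was 2.36-fold higher in cKO (log2 difference 1.24, SE 0.15, limma adjusted p = 0.00239), and the call held whichever of the 8 arrays was omitted. Its mean lies in the lowest 40% of probe sets.

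Zfp462 1439106_PM_at read 8.34, 8.38, 8.22 and 8.08 in cKO and 7.81, 7.54, 7.53 and 7.87 in WT. It was 1.48-fold higher without overlap, at 8.25 ± 0.13 against 7.69 ± 0.18 (SD, n = 4 each; limma adjusted p = 0.0141). Its other probe sets, 1456789_PM_at and 1458026_PM_at, differed by 0.30 and 0.25, each without overlap, and were not called (limma adjusted p = 0.185 and 0.191). Zfp518b 1452340_PM_at, a dim probe set, read 4.67, 4.78, 4.81 and 4.85 in cKO and 4.46, 4.42, 4.34 and 4.55 in WT. It was 1.26-fold higher (log2 difference 0.33, SE 0.06, limma adjusted p = 0.0136), and 1441134_PM_at differed by 0.29 with overlap (limma adjusted p = 0.226). The Zfp462 and Zfp518b calls were lost without WT replicate 3 (limma adjusted p = 0.0522 and 0.0502) and without cKO replicate 2 (0.0603 and 0.0520). Without WT replicate 4, which lay nearest to cKO in all 3 called probe sets, 5 of the 85 were called: the same 3, Zfp518b 1441134_PM_at, and Jmjd1c, lower. Calls also rose over the whole array in that setting. Of 45037 probe sets, 862 were called higher and 829 lower, instead of 536 and 266 with all arrays. WT replicate 4 also had the immediate early mean of the cKO arrays, whose part in these differences was not tested.

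**Figure D5:**
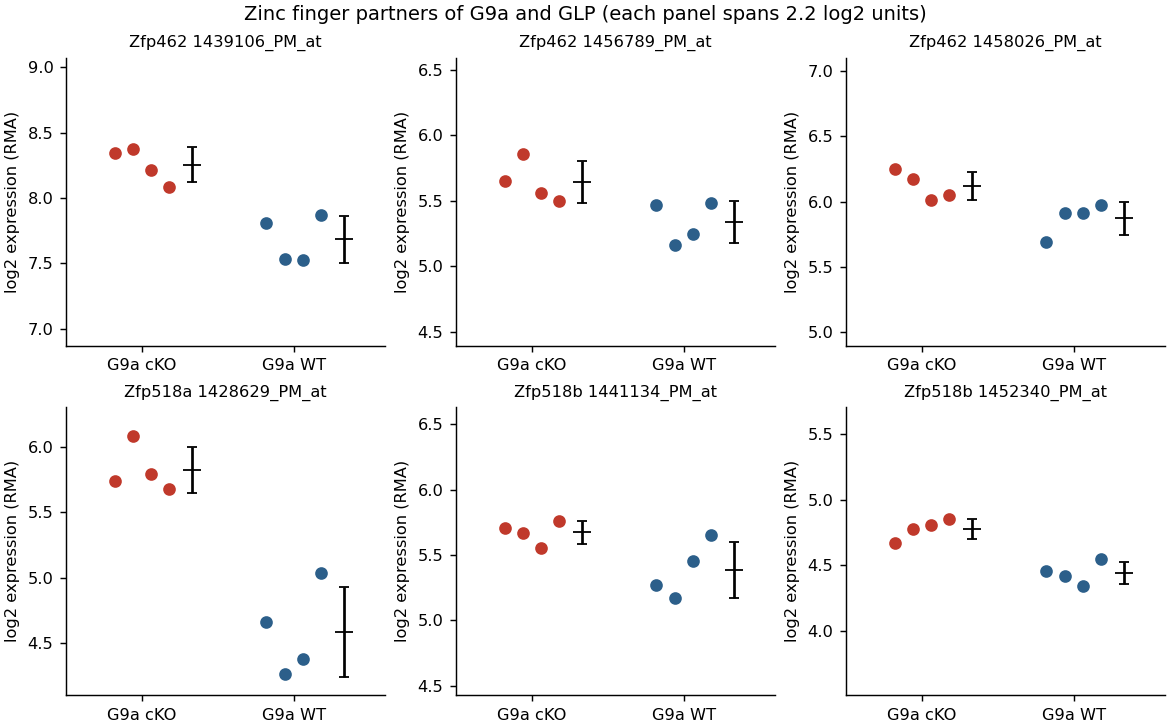
Log2 expression (y axis, RMA; every panel spans 2.2 units around its own mean) of the 6 probe sets of Zfp462, Zfp518a and Zfp518b in G9a cKO (red) and G9a WT (blue) arrays, with bars for the mean ± SD (n = 4). All 6 means are higher in cKO, from 0.25 to 1.24 log2 units; 1428629_PM_at, 1439106_PM_at and 1452340_PM_at were called.

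The RefSeq start windows of Zfp518a and Zfp518b are shown because these paralogous genes were both called higher. They are printed as above, with CG dinucleotides in capitals.
Zfp518a, chr19:40894455-40894754, plus strand: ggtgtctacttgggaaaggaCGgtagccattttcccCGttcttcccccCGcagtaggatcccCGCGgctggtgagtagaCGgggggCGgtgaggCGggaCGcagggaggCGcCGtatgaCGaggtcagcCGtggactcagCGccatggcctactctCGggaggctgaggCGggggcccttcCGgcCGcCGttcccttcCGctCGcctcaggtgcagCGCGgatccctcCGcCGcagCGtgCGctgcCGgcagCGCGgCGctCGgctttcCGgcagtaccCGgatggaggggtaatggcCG
Zfp518b, chr5:38684777-38685076, minus strand: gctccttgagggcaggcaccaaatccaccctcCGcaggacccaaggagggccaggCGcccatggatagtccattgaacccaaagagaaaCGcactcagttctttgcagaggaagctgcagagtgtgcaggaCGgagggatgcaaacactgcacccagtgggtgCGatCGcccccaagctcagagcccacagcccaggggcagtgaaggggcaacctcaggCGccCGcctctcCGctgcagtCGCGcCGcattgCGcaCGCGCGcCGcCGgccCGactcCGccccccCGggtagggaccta
They hold 35 and 21 CG dinucleotides, where the median over all windows is 7.

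The remaining lists gave no called probe set, and by the naming rule the gene with the lowest p stands for each. Among other methyltransferases this was Prdm16, a zinc finger factor, whose 1440745_PM_at read 6.40 ± 0.30 in cKO and 5.93 ± 0.19 in WT (n = 4 each; limma adjusted p = 0.169). Prdm16 1429308_PM_at, 1429309_PM_at and 1440870_PM_at differed by 0.21, 0.18 and 0.11 and were not called. Among demethylases it was Jmjd1c, a relative of the H3K9 demethylase Kdm3a, whose 1439998_PM_at read 7.78 ± 0.28 and 8.26 ± 0.33 (n = 4 each; limma adjusted p = 0.235). Jmjd1c 1426900_PM_at and 1448049_PM_at differed by -0.25 and -0.23 and were not called. Without WT replicate 4 Jmjd1c 1439998_PM_at was called, at -0.62 (limma adjusted p = 0.0498). In that setting 829 of 45037 probe sets were called lower, instead of 266. Jmjd1c 1439998_PM_at was also called without both cKO replicate 1 and WT replicate 4, at -0.76 (limma adjusted p = 0.00552). Those arrays were chosen after seeing the data, and without them 1242 of 45037 probe sets were called lower. Among DNA methylation genes it was the methyltransferase Dnmt3b (difference -0.16, limma adjusted p = 0.357). Among Setdb1 and HUSH cofactors it was the corepressor Trim28 (difference -0.05, limma adjusted p = 0.613). Among HP1 partners it was the zinc finger protein Pogz, whose dim 1457748_PM_at differed by -0.10 (limma adjusted p = 0.433), while its 3 other probe sets differed by 0.09, 0.02 and 0.10.

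None of the genes around Ehmt2 was called. Of the 5 protein-coding neighbours on either side in the RefSeq gene table, 8 were measured, by 10 probe sets, and none was called by limma (lowest adjusted p = 0.579). Zbtb12 and Slc44a4, the nearest on each side, differed by 0.04 and -0.05. The complement genes C2 and Cfb differed by -0.11 and -0.02, and the heat shock gene Hspa1b by -0.50 to -0.13 over 3 probe sets. No neighbour probe set had an unadjusted p under 0.05.

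The array pattern of Ehmt2 1460692_PM_at over the 8 arrays was most like that of Bdnf (Pearson r = 0.987), Plcxd1 (0.985) and Dach1 (0.984). It was most opposite to that of Gab2 (-0.992), Mxra8 (-0.991) and an Akr1c12 probe set (-0.989). All 6 were called, and a gap between genotypes alone gives such a correlation, so these values describe 8 arrays and carry no test. The log2 differences of the first 3 were -0.71, -0.44 and -0.87, and those of the last 3 were 1.22, 0.86 and 2.92. Akr1c genes are near-identical, and the probe set, 1450455_PM_s_at, can match more than one of them.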

How the data were processed

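Per the labels' protocols, 25 ng of TRizol-extracted total RNA went through 17 cycles of cDNA amplification, and 8 µg of product was fragmented and biotinylated for the array. The authors deposited log2 expression per probe set. The submitters' processing notes name RMA, with version and settings not given in the sources used here. Values ran from 3.09 to 13.1 and no further normalization was applied. Gene symbols came from the platform annotation, and for 27 of 27 member probe sets the Entrez identifier gave the same symbol in the RefSeq gene table (GRCm38.p6).

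After 104 control probe sets were left out, 45037 entered a linear model per probe set with a moderated, intensity-trended variance and no covariates (limma 3.58.1, R 4.3.3; two-sided), 4 G9a cKO against 4 G9a WT, with Benjamini-Hochberg adjustment over all of them and no filter on dim probe sets. Single values used exact permutation tests. The fit was tested on simulated data. Titles name a genotype and replicate number per array. Nothing says whether each array came from a separate animal or how animals were batched, so p-values rest on the spread between these arrays. The number of arrays limits the precision. Replicate numbers are shared by the genotypes, but same-numbered arrays deviated from their group means with correlations of -0.54 to 0.070, so they were not taken as pairs.

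Members and gene lists were chosen with earlier results of these data known. All member probe sets are shown by name in the figures, and the text describes a part of them in full. Of 6 further H3K9 lists every called gene is named, or the gene with the lowest p. The 5 coding neighbours of Ehmt2 on either side, and the 3 probe sets most and least correlated with the falling Ehmt2 one, are named too. Suv39h1, Tasor, Chaf1a and Kdm3b were not analysed here. Alternatives were quantile normalization again, a common median, a filter on the lowest 40%, no trend, array weights, a replicate block, 1 probe set per gene, other thresholds and leaving out arrays. Python 3.11.15 and matplotlib 3.10.9 made the figures.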

Additional observations from a re-analysis of the deposited data

Results flagged for a closer look

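Among 70 groups of 4 arrays (35 probe sets in each genotype), 2 held an array far from the other 3 for the range of its group, where chance gives about 1 in 20. Cbx1 1431773_PM_at read 4.15 in WT replicate 2 and 4.22 to 4.23 in the other WT arrays, a small gap in a dim probe set. Pogz 1457748_PM_at, also dim, read 4.70 in cKO replicate 1 and 4.53 to 4.56 in the other cKO arrays.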

How the results depend on the processing

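The fall of Ehmt2 1460692_PM_at was called in all 15 alternatives that tested it, with log2 differences from -3.41 to -3.11. None of the 26 other member probe sets was called in any alternative (lowest adjusted p = 0.0571, limma with array weights, for Cbx5 1421932_PM_at). With 1 probe set per gene, the one with the highest mean, the steady Ehmt2 probe set stands for the gene and 0 of the 10 members were called by limma (0 at an unadjusted p under 0.05), where 472 of 17097 genes (2.76%) were. The unequal response of both Ehmt2 probe sets stayed between -3.40 and -3.10 when 1 array was left out. With replicate numbers as pairs it was -3.21 with an exact p of 0.125, the smallest that 4 pairs allow. The same-numbered arrays did not deviate together, so the replicate block is only a check: with it 454 probe sets were called instead of 802, and 1 of the 85 further H3K9 probe sets instead of 3, that of Zfp518a, while Zfp462 and Zfp518b had limma adjusted p of 0.0571 and 0.0513. That count was 1 without the lowest 40% of probe sets, which drops both dim zinc finger probe sets, and 1 to 5 when 1 array was left out. The count over all probe sets was 1457 with array weights, 2286 without cKO replicate 1 and WT replicate 4, 330 at an adjusted p under 0.01, 1355 under 0.1, and 419 (without cKO replicate 2) to 1691 (without WT replicate 4) with 1 array left out. The cause of these shifts was not tested. Low signal limits what can be seen in the 4 dim member probe sets, 1 each of Zfp644, Cdyl, Cbx1 and Cbx5. It may also limit those just above the 40% cut, such as the only Setdb2 probe set.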
